A study of Mus musculus with 12 samples.

Results

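Integrins are surface receptors made of 1 alpha and 1 beta chain, and 10 genes for such chains were described: Itgae, Itgb7, Itga1, Itga2, Itga4, Itgb1, Itgal, Itgb2, Itgav and Itgb3. They were taken by name as chains that T cells use, with no threshold on their values, and all 10 were found by symbol among the 56980 genes of the count table. All 10 also passed the filter on low counts, which kept 20411 genes. The libraries are bulk RNA-seq of CD8+ T cells sorted from tumours, 12 libraries in 4 groups of 3. Every cell sorted was DAPI- (alive), CD45.2+ (of blood lineage) and CD8+, and every mouse was wild type of the C57BL/6J strain. Tumours were of Panc02 (a murine pancreatic carcinoma line) or of Panc02 that expresses Flt3L, the growth factor for dendritic cells. From each tumour type, cells without (asGM1-) and with (asGM1+) surface asialo-GM1, a neutral glycolipid best known on natural killer cells and activated T cells, were taken. The 4 groups are thus Panc02 asGM1-, Panc02 asGM1+, Flt3L Panc02 asGM1- and Flt3L Panc02 asGM1+. Whether Panc02 and its Flt3L form are single clones, how old the mice were and whether animals were pooled is not given in the sources used here. Nothing in the labels says that numbered replicates are separate mice, so p-values measure the spread between these libraries, which may be technical in part.

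An integrin works only as a pair, and the pair fixes what a cell can hold on to. Alpha E pairs with beta 7 and binds E-cadherin on epithelial cells, a feature of tissue-resident CD8+ T cells, while alpha 4 pairs with beta 7 or beta 1 and takes cells from blood into gut or inflamed tissue through MAdCAM-1 or VCAM-1. Alpha 1 and alpha 2 pair with beta 1 and bind collagens. Alpha L pairs with beta 2 (LFA-1), binds ICAMs and holds the T cell to its target. Alpha v pairs with beta 3 among others and binds matrix proteins such as vitronectin and fibronectin.

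Library totals lay between 98663008 and 102896605 counts, and 1 sequenced fragment was worth about 2.71 counts. Spearman correlations over genes were 0.973 to 0.983 between libraries of a group and 0.942 to 0.978 between groups. Values below are CPM, counts brought to a common library size after TMM scaling, and fold changes come from 1 edgeR quasi-likelihood model of the 4 group means. A gene is called where its Benjamini-Hochberg adjusted p over the 20411 genes is under 0.05. The sort was checked on T cell markers: Cd3e, a chain of the T cell receptor complex, lay at 614 to 1412 CPM. The libraries also held transcripts of other cells. Siglech, which defines plasmacytoid dendritic cells, was at 40.4 to 70.1 CPM in Panc02 asGM1- and 253 to 290 CPM in Flt3L Panc02 asGM1- libraries, and at most 4.56 CPM in asGM1+ libraries.

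Itgae and Itgb7, the chains of the E-cadherin receptor, were both lower in asGM1+ than in asGM1- cells, in either tumour type. Itga1, the collagen receptor chain, was higher in asGM1+ cells of Flt3L Panc02 tumours. Itga4 was higher in Flt3L Panc02 than in Panc02 tumours in both gates, and Itgb7 was higher there in asGM1+ cells. Itga2, Itgb1, Itgal, Itgb2, Itgav and Itgb3 were called in none of the 4 comparisons.

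**Figure D1:**
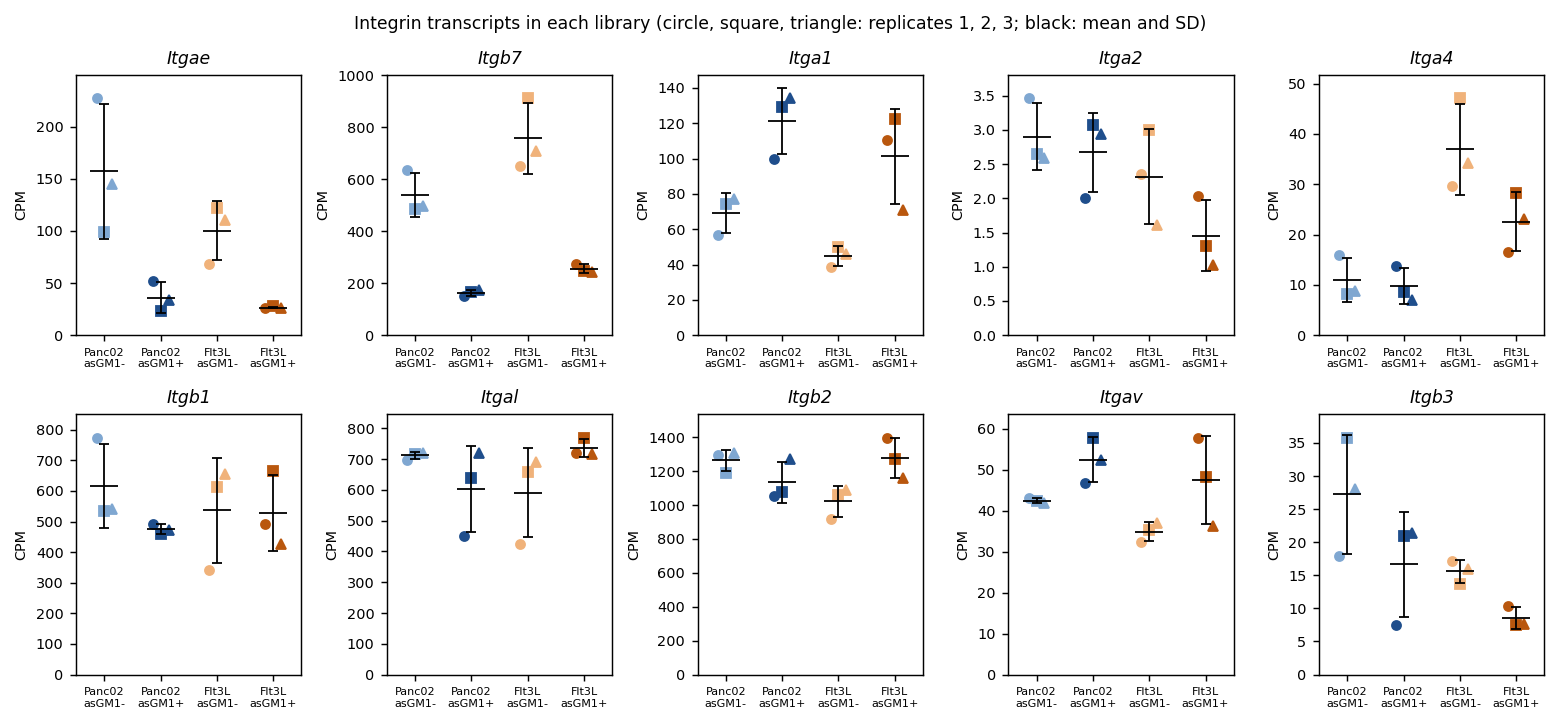
CPM of each of the 10 integrin genes in every library, with 1 panel per gene and the 4 groups along the horizontal axis; bars are the mean and SD of 3 libraries. The asGM1- libraries of Itgae and Itgb7 stand above the asGM1+ libraries of the same tumour type, and those of Itga1 stand below them.

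Itgae codes for integrin alpha E (CD103) and lies on chromosome 11 (GRCm38, as all chromosomes given here). In Panc02 asGM1- cells it was measured at 227, 99.4 and 145 CPM (mean 157 ± 64.8, SD, n = 3), and in Panc02 asGM1+ cells at 52.0, 22.9 and 33.6 CPM (36.2 ± 14.8). In Flt3L Panc02 asGM1- cells it was at 67.9, 122 and 111 CPM (100.2 ± 28.5), and in Flt3L Panc02 asGM1+ cells at 26.3, 27.6 and 25.9 CPM (26.6 ± 0.876). Every asGM1- library was thus above every asGM1+ library of its tumour type, and the Panc02 libraries spread more widely than those of Flt3L Panc02 tumours. Itgae was 4.34-fold lower in asGM1+ cells of Panc02 tumours (log2 fold change -2.12 ± 0.34, SE, 95% interval -2.87 to -1.37, edgeR adjusted p = 0.0115). Its level in asGM1+ cells of Flt3L Panc02 tumours was 3.77-fold lower (-1.91 ± 0.34, interval -2.66 to -1.17, edgeR adjusted p = 0.00634). The difference between the tumour types in asGM1- cells, -0.65 ± 0.33 on the log2 scale, was not called (edgeR adjusted p = 0.300), and neither was that in asGM1+ cells, -0.44 ± 0.33 (edgeR adjusted p = 0.442). The Panc02 call was lost without Panc02 asGM1+ replicate 2 (-1.88, edgeR adjusted p = 0.0546), with scaling by T cell genes (-1.99, edgeR adjusted p = 0.0510) and in a fit to the compared libraries alone (-2.15, edgeR adjusted p = 0.0808). In bulk RNA, fewer cells that express a gene and less RNA per cell cannot be told apart.

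Itgb7, on chromosome 15, codes for the beta chain that alpha E needs and that alpha 4 can use. Panc02 asGM1- libraries held 636, 484 and 496 CPM (539 ± 84.3), against 149.6, 165 and 175 CPM (163 ± 12.6) in Panc02 asGM1+ libraries. Flt3L Panc02 asGM1- libraries held 652, 912 and 707 CPM (757 ± 137), against 275, 249 and 244 CPM (256 ± 16.7) in Flt3L Panc02 asGM1+ libraries. The lowest asGM1- library had 484 CPM and the highest asGM1+ library 275 CPM, so the gates did not overlap even across tumour types. In Panc02 tumours Itgb7 was 3.31-fold lower in asGM1+ cells (-1.73 ± 0.15, edgeR adjusted p = 0.000237) and ranked 7 of all genes by p. Among Flt3L Panc02 libraries it was 2.96-fold lower (-1.57 ± 0.15, edgeR adjusted p = 0.00016). Both calls held in each run that left out 1 library and under each of the other 11 settings tried.

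Members called lower in Panc02 asGM1+ cells numbered 2 of 10, Itgae and Itgb7, and none was called higher. Of all genes tested there 0.892% were called in either direction and 0.843% as lower. Between the gates of Flt3L Panc02 tumours 3 of 10 members were called, against 8.59% of all genes. Itgae and Itgb7 were lower there, as were 5.83% of all genes, and Itga1 was higher, as were 2.77%. Groups did not overlap for 5 of 10 members in Panc02 (17.6% of all genes) and for 7 of 10 in Flt3L Panc02 tumours (28.7%). The median log2 fold change of the 10 members was -0.21 in Panc02 and -0.35 in Flt3L Panc02 tumours, against 0.02 and 0.02 over all genes above the count floor.

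Itgae and Itgb7 are also made by other cells that the gate could hold. Foxp3, the defining factor of regulatory T cells, was at 64.2, 48.5 and 72.7 CPM in Panc02 asGM1- libraries and at 11.6, 6.92 and 5.29 CPM in Panc02 asGM1+ libraries. With Flt3L expressed in the tumour, Foxp3 was at 18.2, 35.0 and 26.4 CPM in asGM1- and at 9.28, 11.1 and 9.64 CPM in asGM1+ libraries. Foxp3 thus stood higher in the asGM1- libraries of both tumour types, as Itgae did. Cd4, a gene of CD4+ T cells, was at 6.06 to 8.37 CPM in Panc02 asGM1- and 2.78 to 3.25 CPM in Panc02 asGM1+ libraries. In Flt3L Panc02 tumours Cd4 was at 23.0 to 32.2 CPM in asGM1- and 4.43 to 4.98 CPM in asGM1+ libraries. Between the tumour types in asGM1- cells, Cd4 was thus higher and Foxp3 lower with Flt3L. Which cells held the Foxp3 transcripts was not tested. The 13 genes of the regulatory and CD4+ T cell list, Foxp3 among them and Itgae left out, summed to 2031 to 2704 CPM in Panc02 asGM1- and 1304 to 1598 CPM in Panc02 asGM1+ libraries. For Flt3L Panc02 tumours the sums overlapped, at 1442 to 1861 CPM in asGM1- and 1602 to 1882 CPM in asGM1+ libraries. Tnfrsf18, at 515 to 1262 CPM, was the largest part of these sums in every library, so they say little about Foxp3. Of these 13 genes, Foxp3 included, 3 were called lower in asGM1+ cells of Panc02 and 4 in those of Flt3L Panc02 tumours, and none was called higher. Of 18 genes of plasmacytoid dendritic cells, 12 and 14 were called lower. Their sums ran from 1446 to 1774 against 1036 to 1470 CPM in Panc02 and from 2576 to 3396 against 1398 to 2061 CPM in Flt3L Panc02 tumours. Ly6c2, at 715 to 1929 CPM, was the largest part of the plasmacytoid sums in every library. Sums over 11 genes of type 1 conventional dendritic cells, which also make alpha E, were 762 to 896 and 777 to 845 CPM in Panc02 asGM1- and asGM1+ libraries. The Flt3L Panc02 sums were 808 to 864 and 741 to 832 CPM. Irf8, at 483 to 658 CPM in every library, made up most of these sums, and 2 of the 11 genes were called lower in asGM1+ cells of Flt3L Panc02 tumours and none higher. Clec9a, a defining gene of these cells, was at 4.02 to 5.65 CPM in asGM1- and 0.208 to 1.08 CPM in asGM1+ libraries there. Of 11 tested genes of other conventional dendritic cells 6 were called lower in the same comparison and none higher, while neither dendritic list had a call between the Panc02 gates. The part of these cells in the Itgae and Itgb7 differences was not tested.

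Itga4, on chromosome 2, codes for integrin alpha 4 (CD49d), and it differed by tumour type. In asGM1- cells Itga4 was measured at 15.9, 8.29 and 8.74 CPM in Panc02 libraries (11 ± 4.28) and at 29.6, 47.1 and 34.2 CPM in Flt3L Panc02 libraries (37.0 ± 9.05). In asGM1+ cells it was at 13.7, 8.60 and 6.94 CPM (9.75 ± 3.53) and at 16.5, 28.2 and 23.0 CPM (22.6 ± 5.87). Each Flt3L Panc02 library was above each Panc02 library of the same gate, by a narrow margin in asGM1+ cells. Itga4 was 3.36-fold higher in asGM1- cells of Flt3L Panc02 tumours (1.75 ± 0.33, interval 1.04 to 2.46, edgeR adjusted p = 0.0175). In asGM1+ cells it was 2.31-fold higher (1.21 ± 0.32, interval 0.51 to 1.92, edgeR adjusted p = 0.0487). Between gates Itga4 was not called, at -0.17 ± 0.32 in Panc02 (edgeR adjusted p = 0.954) and -0.71 ± 0.32 among Flt3L Panc02 libraries (edgeR adjusted p = 0.188).

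Itgb7 stood beside it: in asGM1+ cells it was 1.57-fold higher in Flt3L Panc02 than in Panc02 tumours (0.65 ± 0.14, interval 0.34 to 0.96, edgeR adjusted p = 0.0257), with no overlap between libraries. In asGM1- cells the difference was 0.49 ± 0.14, also without overlap, and was not called (edgeR adjusted p = 0.0816). Itga4 was thus the 1 member of 10 called in asGM1- cells, where 3.7% of all genes were called and 1.86% as higher. In asGM1+ cells 2 of 10 were called, both higher, against 6.25% of all genes in either direction and 2.05% as higher. Groups did not overlap for 7 of 10 members in asGM1- cells (26.6% of all genes) and for 2 of 10 in asGM1+ cells (30.7%). The tumour comparisons use the same libraries as the gate comparisons, so the 4 are not independent of each other.

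These tumour-type calls were often lost when 1 library was left out, though the estimates kept their sign. Of 6 such runs each, the Itga4 call held in 3 in asGM1- and 2 in asGM1+ cells and the Itgb7 call in 1. The log2 fold changes in these runs were 1.54 to 2.12, 1.02 to 1.54 and 0.59 to 0.72 in that order. The Itga4 call in asGM1- cells was lost without Panc02 asGM1- replicate 2 (1.58, edgeR adjusted p = 0.0933), Panc02 asGM1- replicate 3 (1.61, edgeR adjusted p = 0.0756) or Flt3L Panc02 asGM1- replicate 2 (1.54, edgeR adjusted p = 0.0796). The Itga4 call in asGM1+ cells was lost without Panc02 asGM1+ replicate 2 (1.13, edgeR adjusted p = 0.166) or 3 (1.04, 0.0946), or Flt3L Panc02 asGM1+ replicate 2 (1.02, 0.151) or 3 (1.22, 0.128). The Itgb7 call was lost without Panc02 asGM1+ replicate 1 (0.59, edgeR adjusted p = 0.106) or 2 (0.66, 0.0901), or without Flt3L Panc02 asGM1+ replicate 1 (0.60, 0.0561), 2 (0.67, 0.0775) or 3 (0.70, 0.0665). Scaling by 16 T cell genes moved the median of all genes by -0.52 in the asGM1+ comparison and by -0.03 in the asGM1- one. In asGM1+ cells the 2 calls as higher then gave way to 3 as lower in Flt3L Panc02 tumours: Itga1 (-0.74, edgeR adjusted p = 0.0356), Itga2 (-1.34, 0.0252) and Itgb3 (-1.43, 0.0162). On that scale Itga4 stood at 0.65 and Itgb7 at 0.15 in asGM1+ cells, edgeR adjusted p = 0.193 and 0.591, and Itga4 at 1.70 in asGM1- cells, edgeR adjusted p = 0.0647. With the replicate block the Itga4 difference in asGM1+ cells was 1.26 (edgeR adjusted p = 0.0507). In asGM1- cells 8 of 18 plasmacytoid dendritic cell genes were called higher in Flt3L Panc02 tumours and none lower, and in asGM1+ cells 1 was. Their part in the Itga4 difference was not tested. Exons of Cerkl, on the opposite strand, share 1124 bases with those of Itga4, and Cerkl itself was at 1.77 to 3.95 CPM. Whether the counts keep strand is not stated, so reads in the shared bases cannot be assigned to either gene.

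**Figure D2:**
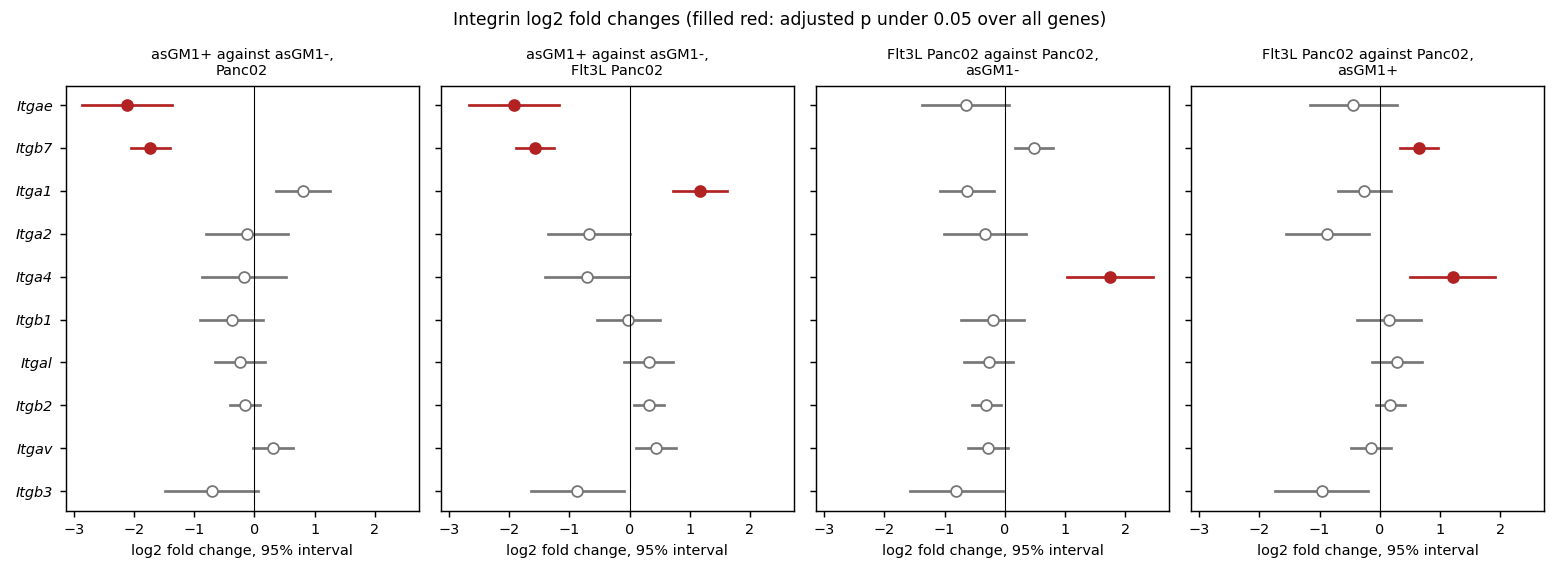
Log2 fold changes of the 10 integrin genes in the asGM1 comparison of each tumour type and the tumour comparison of each gate, with 95% intervals from the edgeR model; filled points are called at an adjusted p under 0.05. Itgae and Itgb7 lie left of 0 in both gate comparisons, and Itga4 lies right of 0 in both tumour comparisons.

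Itga1, on chromosome 13, codes for integrin alpha 1 (CD49a), a collagen receptor chain that marks resident CD8+ T cells in several tissues. Its order between the gates was the opposite of that of Itgae. Panc02 asGM1- libraries held 56.5, 74.2 and 76.8 CPM (69.2 ± 11.1), against 99.6, 129 and 134 CPM (121 ± 18.7) in Panc02 asGM1+ libraries. Flt3L Panc02 asGM1- libraries held 38.5, 49.9 and 46.0 CPM (44.8 ± 5.83), against 110.3, 122 and 70.7 CPM (101 ± 27.1) in Flt3L Panc02 asGM1+ libraries. Neither pair of groups overlapped, and Flt3L Panc02 asGM1+ replicate 3 was the lowest of the asGM1+ libraries. Between the Flt3L Panc02 gates Itga1 was 2.26-fold higher in asGM1+ cells (1.17 ± 0.21, interval 0.73 to 1.62, edgeR adjusted p = 0.00575), a call that held in every run leaving out 1 library. In Panc02 tumours the difference was 0.81 ± 0.20 and was not called (edgeR adjusted p = 0.118), while DESeq2 called it (0.81, DESeq2 adjusted p = 0.00898), as did limma-voom (0.78, limma adjusted p = 0.0129). The tumour types differed by -0.63 ± 0.20 in asGM1- cells (edgeR adjusted p = 0.111) and by -0.26 ± 0.20 in asGM1+ cells (edgeR adjusted p = 0.470). Itga1 shares 685 exon bases with the gene model Gm49395 on the same strand, which was at 0.962 to 5.21 CPM, and how reads were split between them is uncertain.

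For the called members whose upstream sequence was in the RefSeq table (6 of the 10 had one), the 250 bases before the gene's start are printed, so that the stretch can be read beside its values. They are written 5′ to 3′ along the gene's own strand, in the GRCm38.p6 build. Itgb7 is at chr15:102231936-102232185 on the minus strand, Itga4 at chr2:79255176-79255425 on the plus strand and Itga1 at chr13:115101965-115102214 on the minus strand. Capitals mark matches, on either strand, to short core motifs of 6 families of transcription factors.
Itgb7: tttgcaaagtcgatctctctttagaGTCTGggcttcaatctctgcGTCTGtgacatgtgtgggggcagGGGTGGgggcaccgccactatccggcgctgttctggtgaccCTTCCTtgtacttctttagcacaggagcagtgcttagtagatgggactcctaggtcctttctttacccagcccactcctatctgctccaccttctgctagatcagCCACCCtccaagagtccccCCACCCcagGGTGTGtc
Itga4: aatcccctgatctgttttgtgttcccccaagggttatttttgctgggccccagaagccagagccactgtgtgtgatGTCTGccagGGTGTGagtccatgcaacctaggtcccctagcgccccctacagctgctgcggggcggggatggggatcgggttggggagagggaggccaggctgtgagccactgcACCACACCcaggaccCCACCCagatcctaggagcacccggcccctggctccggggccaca
Itga1: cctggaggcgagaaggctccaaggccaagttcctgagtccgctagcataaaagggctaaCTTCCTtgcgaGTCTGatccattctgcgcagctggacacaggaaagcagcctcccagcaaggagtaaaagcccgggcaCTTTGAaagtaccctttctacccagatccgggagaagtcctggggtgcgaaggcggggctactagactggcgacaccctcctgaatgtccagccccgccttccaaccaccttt
The motifs searched were TGTGGT (RUNX), CTTTGA (TCF), CCACCC (KLF), GTCTG (SMAD), GGTGTG (T-box) and AGGAAG (ETS). Upstream of Itgb7 there were 3 KLF matches, of which the nearest to the start begins 17 bases before it, with 2 SMAD, 1 T-box and 1 ETS match. Upstream of Itga4 there were 1 RUNX, 1 KLF, 1 SMAD and 2 T-box matches. The RUNX match and 1 of the T-box matches of Itga4 overlap, beginning 60 and 58 bases before the start. Itga1 had 1 TCF, 1 SMAD and 1 ETS match. Such short motifs are common: of 32851 upstream sequences of this length, 14% hold the RUNX, 13.8% the TCF, 28.1% the KLF, 42.2% the SMAD, 16.3% the T-box and 29.5% the ETS letters. A match describes the letters and shows no binding.

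Itgb1, on chromosome 8, codes for the beta 1 chain shared by the collagen receptors and by alpha 4. It lay between 340 and 775 CPM, with group means of 617 ± 137 (Panc02 asGM1-), 476 ± 16.8 (Panc02 asGM1+), 536 ± 171 (Flt3L Panc02 asGM1-) and 528 ± 124 CPM (Flt3L Panc02 asGM1+). The lowest library was Flt3L Panc02 asGM1- replicate 1 and the highest Panc02 asGM1- replicate 1. Between gates Itgb1 differed by -0.37 ± 0.24 in Panc02 (interval -0.90 to 0.15, edgeR adjusted p = 0.683) and by -0.02 ± 0.24 in Flt3L Panc02 tumours (interval -0.55 to 0.50, edgeR adjusted p = 0.972). Itga2, the other collagen receptor chain and also on chromosome 13, was scarce at 1.03 to 3.46 CPM. In Flt3L Panc02 asGM1+ libraries it was at 2.03, 1.30 and 1.03 CPM, and its largest difference, between the tumour types in asGM1+ cells, was -0.88 ± 0.32 (interval -1.57 to -0.19, edgeR adjusted p = 0.115; called with scaling by T cell genes, as given above).

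Itgal and Itgb2, the chains of LFA-1 on chromosomes 7 and 10, were abundant in every library. Itgal lay between 425 and 770 CPM, with group means of 712 ± 11.8, 603 ± 139, 591 ± 145 and 736 ± 29.9 CPM in the order of groups above. Its lowest values were in replicate 1 of Panc02 asGM1+ (449.99 CPM) and of Flt3L Panc02 asGM1- (425 CPM), and the groups overlapped in Panc02. Itgb2 lay between 918 and 1399 CPM, with group means of 1264 ± 63.9, 1134 ± 120.2, 1022 ± 90.6 and 1278 ± 118 CPM. Both chains were on average lower in asGM1+ than in asGM1- cells of Panc02 tumours and higher in those of Flt3L Panc02 tumours, and none of these differences was called. For Itgb2 they were -0.16 ± 0.11 (edgeR adjusted p = 0.741) and 0.32 ± 0.11 (edgeR adjusted p = 0.0978). For Itgal they were -0.24 ± 0.19 (edgeR adjusted p = 0.785) and 0.32 ± 0.19 (edgeR adjusted p = 0.323). With scaling by T cell genes the Flt3L Panc02 differences were -0.00 for Itgb2 and -0.02 for Itgal, so their direction rests on the scaling. That scaling moved the median of all genes by -0.34 in this comparison.

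Itgav, on chromosome 2, codes for alpha v, and Itgb3, on chromosome 11, for beta 3, which platelets and macrophages make too. Itgav was at 41.8 to 43.0 CPM in Panc02 asGM1- and 46.9 to 57.9 CPM in Panc02 asGM1+ libraries, with no overlap, and the difference of 0.31 ± 0.15 was not called (edgeR adjusted p = 0.535). Among Flt3L Panc02 libraries Itgav was at 32.4, 35.4 and 37.0 CPM in asGM1- and at 57.7, 48.2 and 36.3 CPM in asGM1+ libraries, which overlapped (0.44 ± 0.15, edgeR adjusted p = 0.0944). Without Flt3L Panc02 asGM1+ replicate 3 that difference was 0.61 and was called (edgeR adjusted p = 0.0215). Exons of Gm13684 on the opposite strand share 634 bases with those of Itgav, and Gm13684 was at 1.93 to 3.501 CPM. Itgb3 was at 17.8, 35.8 and 28.0 CPM in Panc02 asGM1-, 7.48, 21.0 and 21.5 CPM in Panc02 asGM1+, 17.1, 13.7 and 15.9 CPM in Flt3L Panc02 asGM1- and 10.4, 7.47 and 7.66 CPM in Flt3L Panc02 asGM1+ libraries. Panc02 groups of Itgb3 overlapped, and in Flt3L Panc02 tumours each asGM1+ library was below each asGM1- library. Its 4 differences, between -0.71 ± 0.35 and -0.97 ± 0.35, were not called (edgeR adjusted p = 0.540 and 0.123 for these). Without Panc02 asGM1+ replicate 1, the lowest library of its group, Itgb3 was called between the tumour types in asGM1+ cells (-1.32, edgeR adjusted p = 0.0300). Of 11 other settings, 3 called Itgb3 between the Flt3L Panc02 gates, 3 between the tumour types in asGM1+ cells and 1 in asGM1- cells. The platelet genes Pf4 and Itga2b were at 0.246 to 1.83 and 0.176 to 1.97 CPM, and the 14 platelet genes together at 0.823 to 4.80 CPM. The 15 tested macrophage genes had median log2 fold changes of -1.13 and -1.30 between the tumour types in asGM1- and asGM1+ cells. Between the gates their medians were 0.99 in Panc02 and 0.90 in Flt3L Panc02 tumours. The part of either cell type in the Itgb3 differences was not tested.

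Whether the gate difference depended on the tumour type was tested as an interaction, and no member was called by edgeR, DESeq2 or limma-voom, against 0.367% of all genes by edgeR. At an unadjusted p under 0.05, as 14.8% of all genes had, there was 1 member, Itgb2 (0.48 ± 0.16, interval 0.13 to 0.82, edgeR adjusted p = 0.200). Itgae had an interaction of 0.20 ± 0.47 (interval -0.81 to 1.22, edgeR adjusted p = 0.869) and Itgb7 of 0.16 ± 0.20 (interval -0.28 to 0.60, edgeR adjusted p = 0.747). For Itga1 it was 0.37 ± 0.29 (interval -0.26 to 0.99, edgeR adjusted p = 0.576). The call of Itga1 in Flt3L Panc02 tumours alone therefore does not show that its gate difference depended on the tumour type.

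To compare chains with each other, CPM was divided by the length in kilobases of the longest principal transcript of each gene in GENCODE M21. Over the 12 libraries Itgb2 had the highest level per kilobase at 395 CPM, followed by Itgb7 at 159.8, Itgb1 at 141 and Itgal at 127 CPM. Itgae followed at 20.8, Itga1 at 7.66, Itgav at 6.28, Itgb3 at 2.94, Itga4 at 2.05 and Itga2 at 0.329 CPM per kilobase. Neighbours in this order often overlapped: Itgb1 ranged from 89.2 to 203 and Itgal from 81.9 to 148.3 CPM per kilobase, and Itga1 from 3.51 to 12.2 and Itgav from 4.59 to 8.21. The order of Itgb3 and Itga4 differed by tumour type: group means of Itgb3 were 4.71, 2.88, 2.69 and 1.47 and those of Itga4 1.12, 0.998, 3.78 and 2.31 CPM per kilobase, in the order of groups above. Group means of Itgb7 were 201, 60.7, 282 and 95.3 CPM per kilobase in the order of groups above, so that it stood above Itgb1 (162, 125, 141 and 138) in both asGM1- groups and below it in both asGM1+ groups.

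**Figure D3:**
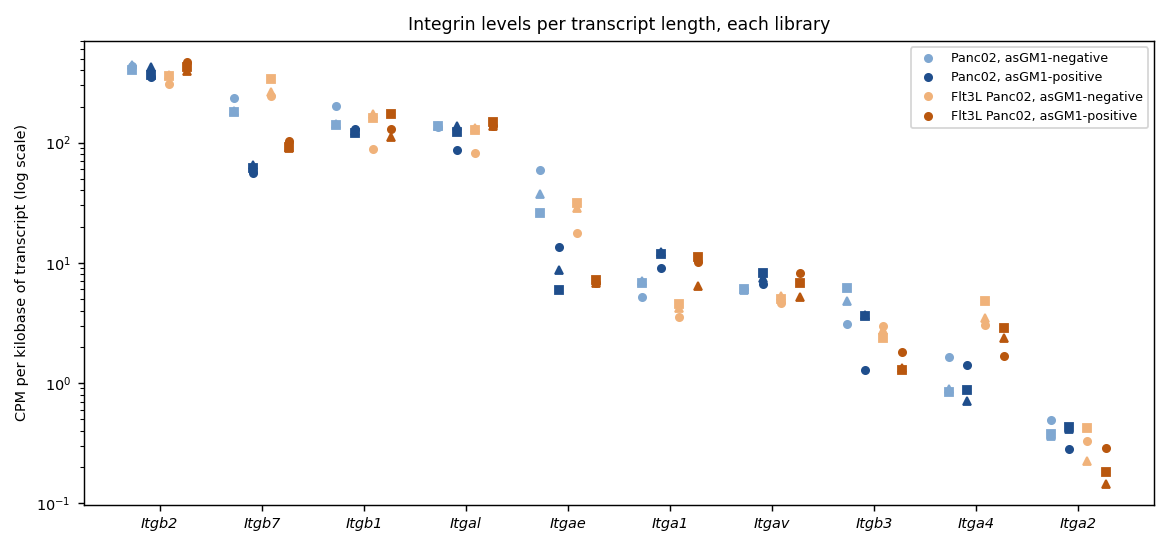
Level of each integrin gene per kilobase of its transcript in the 12 libraries, on a log axis, ordered by the mean over all libraries. Itgb2 is highest at a mean of 395 and Itga2 lowest at 0.329 CPM per kilobase.

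Ratios within a library put the chains that share a partner side by side. Itgae over Itga4, the alpha chains that can take beta 7, was 36.2 ± 5.78 per kilobase in Panc02 asGM1-, 9.56 ± 2.77 in Panc02 asGM1+, 6.87 ± 1.23 in Flt3L Panc02 asGM1- and 3.13 ± 0.819 in Flt3L Panc02 asGM1+ libraries. Itgae exceeded Itga4 in all 12 libraries, from 2.48 to 42.0 times. The ratio of Itgb7 to Itgb1 was 1.25 ± 0.0749, 0.488 ± 0.0502, 2.12 ± 0.595 and 0.713 ± 0.158 in the same order. It was above 1 in every asGM1- and below 1 in every asGM1+ library. Itga1 over Itgb1 was 0.0410 ± 0.0136, 0.0888 ± 0.0161, 0.0307 ± 0.00773 and 0.0666 ± 0.0105, with no overlap between the gates of a tumour type. Itgal over Itgb2, the LFA-1 pair, stayed within 0.245 to 0.363 over all 12 libraries. These ratios restate the levels above and were not tested.

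**Figure D4:**
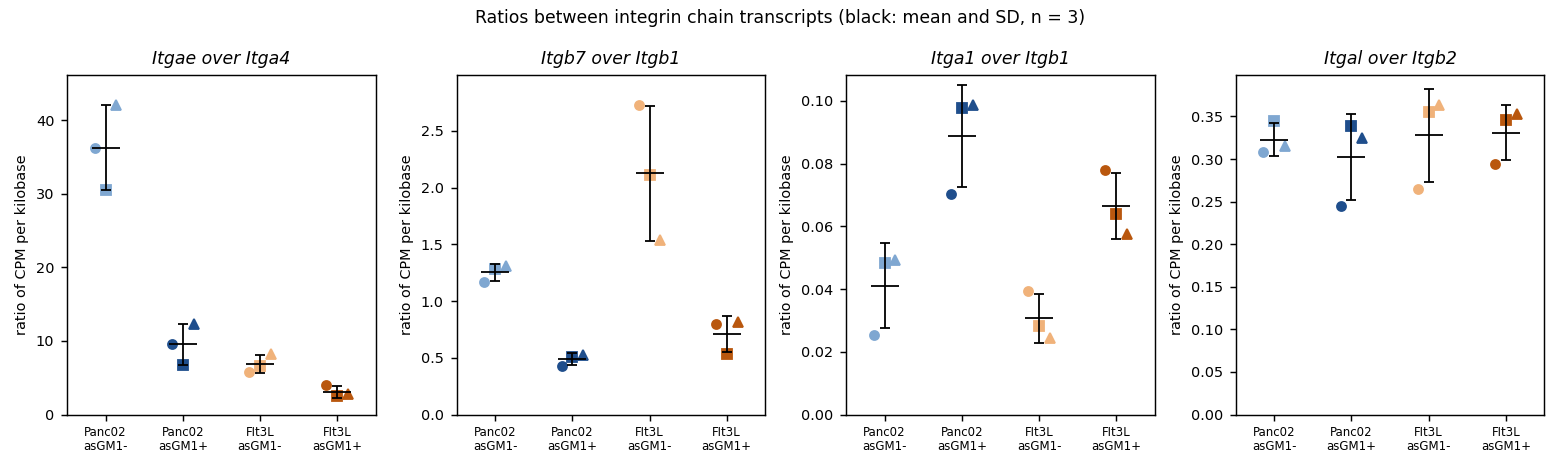
Ratios of CPM per kilobase between integrin chains in every library, with the mean and SD of 3 libraries per group. Itgb7 over Itgb1 lies above 1 in the asGM1- libraries and below 1 in the asGM1+ libraries, and Itgal over Itgb2 stays between 0.245 and 0.363.

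Of 17 other integrin chains 14 passed the filter, and none was called between the gates of Panc02 tumours. Itgax (CD11c), a chain of dendritic cells and macrophages, was 2.06-fold lower in asGM1+ than in asGM1- cells of Flt3L Panc02 tumours (-1.05 ± 0.26, edgeR adjusted p = 0.0317). Itgax was also 2.27-fold higher in Flt3L Panc02 than in Panc02 asGM1- cells (1.18 ± 0.26, edgeR adjusted p = 0.0355). Its values in Flt3L Panc02 asGM1- libraries were 13.9, 25.8 and 24.3 CPM, and the other 9 libraries lay between 7.56 and 12.9 CPM. Itga8 was listed at 0 in the 3 Flt3L Panc02 asGM1- libraries and at 0.0314 to 0.664 CPM elsewhere; it was called higher in Flt3L Panc02 asGM1+ cells (edgeR adjusted p = 0.0270) and lower in asGM1- cells of Flt3L Panc02 than of Panc02 tumours (edgeR adjusted p = 0.0356). In asGM1+ cells Itga7 (-2.03 ± 0.45), Itgb5 (-1.94 ± 0.45) and Itgam (CD11b, -2.02 ± 0.53) were called lower in Flt3L Panc02 tumours (edgeR adjusted p = 0.0271, 0.0309 and 0.0448). Macrophage genes, a list of 16 that holds Itgam itself, were on average lower as well. Their sums were 3281, 1707 and 862 CPM in Panc02 asGM1+ replicates 1, 2 and 3. In Flt3L Panc02 asGM1+ libraries they were 652 to 884 CPM, so the groups overlapped. C1qa, a complement gene of macrophages, was at 46.1 to 141 and at 36.0 to 47.9 CPM in these groups. Their part in these differences was not tested.

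Ligands of integrins, of which 24 of 26 listed genes passed the filter, showed no call between the gates in Panc02 tumours. Between the gates of Flt3L Panc02 tumours 1 was called, the laminin chain Lamc1 (0.87 ± 0.24, edgeR adjusted p = 0.0474, higher). Icam2, a ligand of LFA-1, was higher in both gates of Flt3L Panc02 tumours (0.80 ± 0.17 in asGM1-, edgeR adjusted p = 0.0263, and 1.01 ± 0.17 in asGM1+ cells, edgeR adjusted p = 0.00894). Vcam1, the ligand of alpha 4 beta 1, was lower in both (-2.14 ± 0.40, edgeR adjusted p = 0.0170, and -2.53 ± 0.40, edgeR adjusted p = 0.00794). Fn1 (fibronectin) was lower in both as well, by -1.88 ± 0.41 and -2.95 ± 0.42 (edgeR adjusted p = 0.0318 and 0.00579). These made up the calls in asGM1- cells, 1 higher and 2 lower, while asGM1+ cells had 1 higher and 7 lower, among them Spp1 (osteopontin, -2.02 ± 0.30). Of all 20411 genes, 380 were called higher and 376 lower in asGM1- cells, and 418 higher and 858 lower in asGM1+ cells. The macrophage sums were 744 to 1267 CPM in Panc02 and 338 to 581 CPM in Flt3L Panc02 asGM1- libraries, with 0 of 15 tested genes called there and 5 called lower in asGM1+ cells. Fibroblast genes moved as well, with 4 of 11 tested called lower in Flt3L Panc02 tumours in each gate and none higher (medians -1.30 in asGM1- and -2.62 in asGM1+ cells). Their summed level was 253 to 296 and 141 to 202 CPM in Panc02 and Flt3L Panc02 asGM1- libraries, and 241 to 539 and 214 to 302 CPM in asGM1+ libraries. The part of either cell type in the ligand differences was not tested. Cdh1, which codes for the E-cadherin that alpha E beta 7 binds, was at 24.4 to 69.97 CPM and was not called in any of the 4 comparisons. These ligand values are transcripts in libraries of sorted CD45.2+ CD8+ cells and do not measure ligand in the tumour.

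Of 42 adaptors and signalling proteins at integrin tails 41 passed the filter. None was called between the gates of Panc02 tumours. Between the Flt3L Panc02 gates Zyx (zyxin, 0.66 ± 0.16), Ilk (integrin-linked kinase, 0.54 ± 0.14) and Ptk2b (the kinase PYK2, 0.61 ± 0.17) were higher in asGM1+ cells and Rasgrp1, an activator of Ras, was lower (-0.79 ± 0.17), with edgeR adjusted p = 0.0247, 0.0325, 0.0493 and 0.0185. Apbb1ip (RIAM, which brings talin to integrins) was higher in Flt3L Panc02 than Panc02 asGM1- cells (0.62 ± 0.13, edgeR adjusted p = 0.0273). Fermt3 (kindlin-3, 0.42 ± 0.10) and Skap1 (0.46 ± 0.12), both needed for LFA-1 activation, were higher in Flt3L Panc02 asGM1+ cells (edgeR adjusted p = 0.0374 and 0.0413). T cell markers moved beside these genes: of 18, 4 were called higher between the Flt3L Panc02 gates (median log2 fold change 0.33) and 6 between the tumour types in asGM1+ cells (median 0.52), and none lower. Their sum was 14267 to 17169 CPM in Panc02 asGM1+, 15958 to 17543 CPM in Flt3L Panc02 asGM1- and 19213 to 24973 CPM in Flt3L Panc02 asGM1+ libraries. The part of this shift in the adaptor differences was not tested. Bcar1 was lower in both gates of Flt3L Panc02 tumours, at 1.63 CPM in the lowest and 16.6 CPM in the highest library, and Fermt2 (kindlin-2) was lower in asGM1+ cells (-2.38 ± 0.46, edgeR adjusted p = 0.0159).

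Regulators of tissue residence and exit were taken as a list of 23 genes. S1pr1, the receptor that draws T cells out of tissue, was lower in asGM1+ cells of both tumour types (-2.72 ± 0.22, edgeR adjusted p = 0.000223, and -2.52 ± 0.22, edgeR adjusted p = 0.000103). Klf2, the factor that drives S1pr1, was lower as well (-1.75 ± 0.28 and -2.10 ± 0.28, edgeR adjusted p = 0.0102 and 0.00126). Both were higher in Flt3L Panc02 than in Panc02 tumours in each gate, S1pr1 by 1.38 ± 0.21 and 1.57 ± 0.22 and Klf2 by 1.75 ± 0.27 and 1.39 ± 0.27 (edgeR adjusted p = 0.00844, 0.00579, 0.00877 and 0.0173). Itgae, which marks residence, and S1pr1, which marks exit, were thus both lower in asGM1+ cells. In Flt3L Panc02 tumours Cd69, which holds S1PR1 inside the cell, was also lower in asGM1+ cells (-0.65 ± 0.12, edgeR adjusted p = 0.00762), as was P2rx7 (-3.30 ± 0.62, edgeR adjusted p = 0.00816), while Cxcr6 (0.78 ± 0.12, edgeR adjusted p = 0.00354) and Tbx21 (T-bet, 0.78 ± 0.13, edgeR adjusted p = 0.00395) were higher. Tgfbr2, Runx3, Smad3, Smad7, Zfp683, Prdm1 and Skil, of the TGF-beta and residence programs that act on Itgae, were called in none of the 4 comparisons. Tgfbr2 lay at 116 to 233 and Runx3 at 131 to 182 CPM. Smad3, though not called, was at 22.3 to 28.9 CPM in Flt3L Panc02 asGM1- and 11.9 to 14.8 CPM in Flt3L Panc02 asGM1+ libraries. Also lower there without overlap, and not called, were Tgfbr1 (9.39 to 15.8 against 4.38 to 8.33 CPM), Runx1 (18.2 to 22.3 against 10.8 to 13.3 CPM) and Ahr (13.4 to 23.2 against 5.85 to 11.9 CPM). Zfp683 was higher there without overlap (29.3 to 34.1 against 41.5 to 45.5 CPM). Between these gates 8 of the 23 genes were lower and 3 higher in asGM1+ cells without overlap, as 28.7% of all genes were in either direction. The list had 2 calls lower and none higher between the gates of Panc02 tumours, and 2 higher and 4 lower between those of Flt3L Panc02 tumours. Between tumour types it had 2 higher and 1 lower in asGM1- cells and 3 higher and none lower in asGM1+ cells.

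Genes whose pattern over the 12 libraries was most like that of a called member were sought among 9592 genes, by the root mean square difference of log2(CPM + 1) after each gene's own mean was subtracted. Nearest to Itgae were Foxp3 (0.429), Tnfsf4 (0.528) and St6gal1 (0.553), where the spread of Itgae about its own mean was 1.08 on this scale. Nearest to Itgb7, whose own spread was 0.876, were Tdrp (0.204), Tnfsf8 (0.235) and Btla (0.326). Tdrp was at 9.21 to 12.9 CPM in Panc02 asGM1-, 2.08 to 2.53 CPM in Panc02 asGM1+, 17.0 to 20.4 CPM in Flt3L Panc02 asGM1- and 4.43 to 5.58 CPM in Flt3L Panc02 asGM1+ libraries. Nearest to Itga1, with a spread of 0.584, were Specc1 (0.176) and Dgkh (0.203). Specc1 was at 4.81 to 7.09 CPM in Flt3L Panc02 asGM1- and 9.33 to 13.4 CPM in Flt3L Panc02 asGM1+ libraries. The neighbours named for Itgae lay farther from it than those named for Itgb7 and Itga1 lay from these genes. These likenesses describe the same 12 libraries, share their depth and cell makeup and carry no test.

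**Figure D5:**
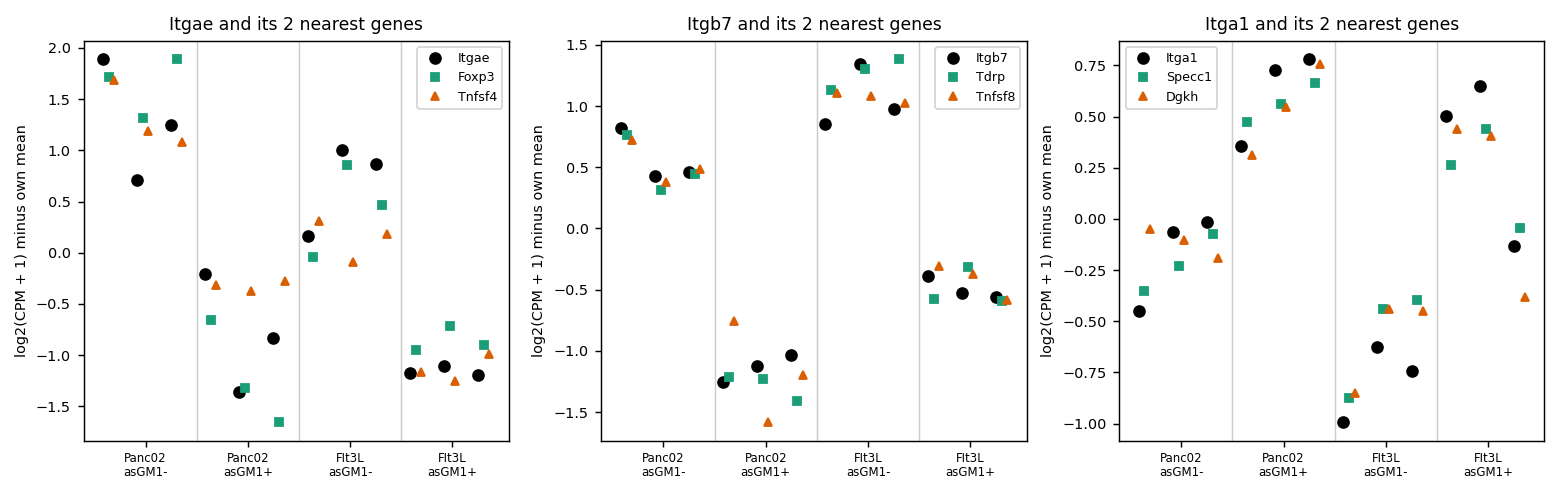
Level of Itgae, Itgb7 and Itga1 and of the 2 genes nearest to each in pattern, as log2(CPM + 1) minus the gene's own mean, in the 12 libraries grouped along the horizontal axis (libraries of a group have no order). Foxp3 is nearest to Itgae at a root mean square difference of 0.429, Tdrp to Itgb7 at 0.204 and Specc1 to Itga1 at 0.176.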

How the data were processed

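The members and gene lists were chosen with earlier results of these data known. The authors deposited whole-number estimated counts per gene. The submitters' processing notes name HISAT2, StringTie and mm39; versions, annotation and strandedness are not given in these sources. Per the labels' protocols, RNA was taken up in TRIzol, and 2 kits (TruSeq mRNA, SMARTer Ultra low input) are named. Rounding changed nothing. Small values came in steps of about 2.71 counts (2.67 to 2.75), taken as 1 fragment. The floor of 3 fragments was 8.13 counts, 0.0901 CPM in the smallest library. Since amplified reads are not independent molecules, this limit is one of counting error alone. No fold change is given for a gene whose mean in a compared group does not exceed it.

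Groups and replicate numbers came from the sample titles. edgeR 4.0.16 in R 4.3.3 was used with TMM factors, filterByExpr by group and 1 quasi-likelihood model of 4 group means over 12 libraries. On simulated counts, over genes of all levels, the Panc02 and Flt3L Panc02 gate tests found 28.4% and 32.8% of 2-fold changes. They found 13.4% and 2.99% of 1.5-fold changes, and 5.56% and 1.64% of their calls were false. A gene not called may therefore still differ. Standard errors are the log2 fold change over the root of F, and intervals use the model's t quantile. Panc02 libraries of the same number deviated together across gates (r = 0.448, 0.307 and 0.391, each highest with its own number). This looks like pairing in the data, but the labels do not state it. The replicate block is an alternative, not part of the model above. The alternatives were DESeq2 1.42.0 factors and test, upper quartile factors, scaling by 16 T cell genes, no filter or 5 CPM in 3 libraries, limma 3.58.1 voom with quality weights, compared libraries alone, a replicate block, counts divided by the step, and leaving out libraries. All members are named; of each list up to 4 called genes per direction and comparison, by smallest p, all called integrin chains, fixed marker genes of other cell types and the 3 nearest genes of a called member with a mean of at least 5 CPM may be. Cdh1, Cd3e, Tgfbr2 and the other uncalled genes named beside them were chosen after their values were seen. Some genes that the rule takes are left out of the text. Transcript lengths and shared exons are from GENCODE M21 and upstream sequences from RefSeq, both on GRCm38 and not the authors' build.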

Additional observations from a re-analysis of the deposited data

How the results depend on the processing

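The number of members called was 2 in the Panc02 gate comparison, 3 in that of Flt3L Panc02 tumours, 1 and 2 in the tumour comparisons of asGM1- and asGM1+ cells, and 0 for the interaction. Scaling by T cell genes gave 1 in the Panc02 gate comparison and 0 in asGM1- cells, and in asGM1+ cells it put 3 calls as lower (Itga1, Itga2, Itgb3) in place of the 2 as higher. No filter gave 1 in asGM1+ cells and the stricter filter 2 in asGM1- cells. DESeq2 and limma-voom each gave 5 between the gates of Flt3L Panc02 tumours and 3 in asGM1- cells. Both also called Itga1 between the Panc02 gates, and DESeq2 called Itgb3 as lower between tumours in asGM1+ cells (DESeq2 adjusted p = 0.0465). The fit to compared libraries alone gave 1 between the Panc02 gates and 0 in asGM1+ cells, and it added Itgb3 between the Flt3L Panc02 gates (edgeR adjusted p = 0.0380). The replicate block gave 5 between the Flt3L Panc02 gates (adding Itga4, edgeR adjusted p = 0.0121, and Itgb3, 0.0192) and 1 in asGM1+ cells. It changed no call between the Panc02 gates, whose libraries look paired in the data. Same-numbered libraries of the Flt3L Panc02 gates had r = 0.0968, 0.403 and -0.00178. Only those numbered 2 had, on both sides, their highest r with their own number. Whether the Flt3L Panc02 gates pair cannot be told from these values. Same-numbered libraries across tumour types had no r above 0.0697 and showed no sign of pairing. Without both Panc02 libraries numbered 1, asGM1- cells had 2, and Itgb3 was added between the Flt3L Panc02 gates (edgeR adjusted p = 0.0148). In asGM1+ cells Itgb3 was then called (edgeR adjusted p = 0.0136) and Itgb7 was not (0.0779). Leaving out 1 library gave 1 to 2, 3 to 4, 0 to 2, 0 to 2 and 0 to 0 in that order. The cause of these changes was not tested.

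Differences of members that were not called changed sign as follows. With T cell scaling Itga2 stood at 0.00819 between the Panc02 gates, Itgal at -0.0203 and Itgb2 at -0.00129 between the Flt3L Panc02 gates, and Itgb1 at -0.36, Itgal at -0.21 and Itgb2 at -0.32 between tumours in asGM1+ cells; interactions were -0.26 (Itgae), -0.31 (Itgb7), -0.10 (Itga1), -0.11 (Itgb1) and -0.32 (Itgav). With limma-voom Itga2 was 0.0276 between the Panc02 gates and Itgb1 0.0933 between tumours in asGM1- cells. With the replicate block Itgb1 was 0.0117 between the Flt3L Panc02 gates. Without both Panc02 libraries numbered 1, Itga2 was 0.20 between the Panc02 gates and the Itgb7 interaction -0.0336. Leaving out 1 library gave, between the Panc02 gates, -0.23 to 0.0488 (Itga2) and -0.50 to 0.20 (Itga4). It gave -0.26 to 0.15 for Itgb1 between the Flt3L Panc02 gates. Between tumours it gave -0.37 to 0.0389 (Itgb1, asGM1-), -0.0516 to 0.31 (Itgb1, asGM1+) and -0.31 to 0.0356 (Itgav, asGM1+). Interactions ran from -0.16 to 0.56 (Itgae), -0.51 to 0.0838 (Itgb3) and -0.0273 to 0.33 (Itgav). No called member reversed under any of these settings.

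Over all genes, DESeq2 called 589, 3215, 2216, 2984 and 864 and limma-voom 831, 2805, 3536, 3120 and 786, where edgeR called 182, 1754, 756, 1276 and 75. T cell scaling gave 102, 2123, 168, 6252 and 138, the fit to compared libraries alone 118, 1094, 836 and 1 in the first 4, and leaving out 1 library 94 to 226, 768 to 1942, 94 to 959, 215 to 1737 and 1 to 257. The shares of all genes given beside members' counts move with these. Among called genes alone, the part that was higher moved with T cell scaling from 32.2% to 3.72% between the Flt3L Panc02 gates. Between tumours in asGM1+ cells that part of the called genes moved from 32.8% to 2.02%. With 3 libraries a group, the precision of each member is that of its interval.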
